A study of Mus musculus with 4 samples.

Results

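Nr4a3, Crem, Gem, Klf4, Klf10 and Pnrc1 are grouped here as genes induced early after a signal or by cyclic AMP (cAMP). Induction of each gene by a signal was not measured here. Of the 6, 5 encode proteins that act on transcription. The 6 genes were taken by symbol from the count tables, out of 56748 genes, and all 6 passed the low count filter. The samples were lymph nodes of 4 EAE mice, that is, mice in which experimental autoimmune encephalomyelitis, a laboratory model of multiple sclerosis, had been set up. Of these mice, 2 had been treated with BrQ, the naphthoquinone 2-bromo-1,4-naphthalenedione, and 2 were controls labelled Vehicle. EAE was shared by both groups. Strain, age, dose and treatment time are not stated in the labels. Each mouse gave 1 RNA library, and the titles number the mice 1 and 3 in each group.

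Immediate-early genes are transcribed within minutes to hours of a stimulus, without a need for new protein synthesis, and many encode transcription factors that set off a later wave of genes. One route runs through cAMP, which activates protein kinase A; the kinase phosphorylates CREB, a factor that binds the cAMP response element (CRE) in promoters. In lymphocytes, antigen receptor signals also induce Nr4a family members, and cAMP-raising signals induce short Crem products that repress CRE-driven genes.

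The genes were chosen with earlier results of these data known, from the difference between BrQ and Vehicle mice and from stretches where names appeared to sit on their own reads. Their differences between BrQ and Vehicle are therefore given as descriptions, and where the number of these genes past the threshold of the fit over all features is given, it supports nothing. In outline, Nr4a3, Gem and Crem were 2.40 to 5.19 times as high in BrQ as in Vehicle libraries, with no overlap between the groups. Such a lack of overlap was common: 39.9% of the 10223 features tested lay wholly higher in BrQ. In either direction, 76.1% did not overlap. With the scaling used here, Klf4 stood close to its Vehicle level with overlapping groups. Its log2 fold change was 0.67 with library size alone. Klf10 and Pnrc1 were lower in BrQ with the scaling used here, but neither passed (edgeR adjusted p 0.12 and 0.070). That margin depended on how libraries were scaled, and Pnrc1 was not lower with library size alone.

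The promoters of Nr4a3, Klf4 and Pnrc1 are printed because the RefSeq promoter table held these 3 of the 6 genes. The promoters of Crem, Gem and Klf10 were not examined. Each sequence runs 5′ to 3′ on the gene's strand, from 250 bases before to 50 after the RefSeq start, on GRCm38.p6. Capitals mark the CRE half-site TGACG or its reverse complement CGTCA.
Nr4a3, chr4:48045055-48045354, plus strand: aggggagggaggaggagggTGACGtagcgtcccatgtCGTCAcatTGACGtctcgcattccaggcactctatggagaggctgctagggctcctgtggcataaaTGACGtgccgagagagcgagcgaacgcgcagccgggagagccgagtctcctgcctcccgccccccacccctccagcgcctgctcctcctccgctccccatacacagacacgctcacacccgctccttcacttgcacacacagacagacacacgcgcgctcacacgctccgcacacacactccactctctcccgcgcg
Klf4, chr4:55532426-55532725, minus strand: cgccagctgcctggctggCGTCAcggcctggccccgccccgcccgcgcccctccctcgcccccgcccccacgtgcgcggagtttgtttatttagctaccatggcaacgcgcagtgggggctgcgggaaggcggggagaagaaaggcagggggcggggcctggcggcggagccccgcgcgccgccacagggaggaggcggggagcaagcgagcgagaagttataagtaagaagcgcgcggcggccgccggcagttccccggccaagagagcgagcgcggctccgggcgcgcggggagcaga
Pnrc1, chr4:33248738-33249037, minus strand: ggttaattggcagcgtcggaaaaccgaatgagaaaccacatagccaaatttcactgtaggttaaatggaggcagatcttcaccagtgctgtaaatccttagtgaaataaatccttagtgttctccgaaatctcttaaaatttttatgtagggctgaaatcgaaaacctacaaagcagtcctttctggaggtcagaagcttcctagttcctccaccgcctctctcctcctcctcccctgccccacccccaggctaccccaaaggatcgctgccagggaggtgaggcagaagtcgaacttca

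The Nr4a3 promoter held 4 CRE half-sites, beginning 231, 213, 205 and 147 bases before the start; the second of these is in the reverse orientation. The Klf4 promoter held 1, beginning 232 bases before the start, and the Pnrc1 promoter held 0. Of 32841 promoters of the same length in the table, searched on both strands, 20.8% held at least 1 half-site and 76 held 4 or more. Those 76 are 0.231% of the table. The Nr4a3 promoter therefore lies among the promoters densest in these letters, and the other 2 do not. GC content was 64.7% for Nr4a3, 74.3% for Klf4 and 48.0% for Pnrc1, against a median of 52.7% over the table.

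**Figure D1:**
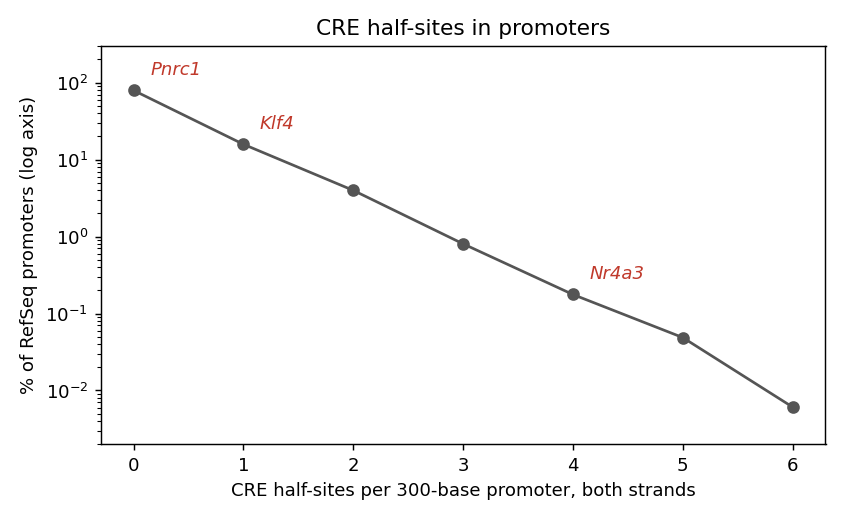
Share of 32841 RefSeq promoters (y axis, percent, log scale) by the number of CRE half-sites in 300 bases on both strands (x axis). Nr4a3, with 4, lies in the thin right end. Pnrc1, with 0, lies with 79.2% of promoters, and Klf4, with 1, lies with 15.8%.

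None of the 3 promoters held the full palindromic CRE, TGACGTCA, which overlaps the half-site and was found in 1.79% of all promoters. The Nr4a-family site known as the NBRE, AAAGGTCA, was in none of the 3 and in 1.51% of all promoters. The AP-1 site TGANTCA, bound by Fos and Jun, was also in none of the 3 and in 7.81% of all. The CArG box, the core of the serum response element, was again in none of the 3 and in 1.63% of all. The CACCC box, a site of the Klf family, occurred 3 times for Nr4a3, once for Pnrc1 and 0 times for Klf4, and was in 57.5% of all promoters. A match describes letters in this window and is not evidence of binding.

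Reads assigned to genes numbered 6992223 and 6813832 in BrQ libraries 1 and 3, and 7315568 and 7989226 in Vehicle libraries 1 and 3. Most reads fell in rows that name no gene, 88.7% and 89.0% in BrQ mice 1 and 3 against 88.0% and 87.0% in Vehicle mice 1 and 3. Mitochondrial reads were 15.8% and 12.1% of gene reads in BrQ, against 20.6% and 30.3% in Vehicle, and this moves the scaling of all other genes. The factors used here (TMM) set the median log2 fold change of all features to 0.05. With library size alone that median was 0.42, with all read rows 0.25 and without mitochondrial rows 0.20. With edgeR's quasi-likelihood test, 4676 of 10223 features tested passed an adjusted p of 0.05, which is 45.7%, with 23.6% higher and 22.2% lower in BrQ. Without BrQ replicate 3, 2031 passed.

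Nr4a3 encodes an orphan nuclear receptor, a transcription factor that needs no known ligand and is induced in T cells by antigen receptor signals. It held 983 and 960 reads in BrQ mice 1 and 3, against 176 and 145 reads in Vehicle mice 1 and 3. Scaled to CPM (counts relative to library size, TMM scaled), these were 124.2 and 123.9 CPM in BrQ and 25.6 and 22.3 CPM in Vehicle. Both BrQ libraries stood far above both Vehicle libraries, and the lower BrQ value was 4.84 times the higher Vehicle value. The mean was 124.0 ± 0.208 CPM in BrQ and 23.9 ± 2.35 CPM in Vehicle (SD, n = 2 each), a log2 fold change of 2.37 ± 0.17 (SE, edgeR fit). The 2 BrQ libraries differed by less than counting error, about 3.2% of each count.

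Crem, the cAMP responsive element modulator, encodes activators and repressors that bind the CRE, among them ICER, a short repressor made from a cAMP-inducible promoter inside the gene. It held 798 and 906 reads in BrQ mice 1 and 3, against 312 and 295 reads in Vehicle mice 1 and 3. After scaling these were 100.8 and 116.9 CPM in BrQ and 45.3 and 45.3 CPM in Vehicle. The groups did not overlap, and the 2 Vehicle libraries were almost equal. The mean was 108.9 ± 11.4 CPM in BrQ and 45.3 ± 0.0430 CPM in Vehicle (SD, n = 2 each), a log2 fold change of 1.26 ± 0.16 (SE, edgeR fit). GENCODE M21 lists 39 transcripts for Crem, and a count per gene does not separate ICER from the longer forms. Of its exonic bases, 8.01% overlap Gm6225 on the other strand, so reads there are uncertain where strand was not used.

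Gem encodes a small GTPase of the RGK family, which restrains voltage-gated calcium channels and is induced in activated T cells; it is the 1 gene of the 6 that is not a transcription regulator. It held 831 and 1089 reads in BrQ mice 1 and 3, against 241 and 289 reads in Vehicle mice 1 and 3. After scaling these were 105.0 and 140.5 CPM in BrQ and 35.0 and 44.3 CPM in Vehicle. The groups did not overlap, although the libraries within each group differed more than those of Nr4a3 or Crem. The mean was 122.7 ± 25.1 CPM in BrQ and 39.7 ± 6.60 CPM in Vehicle (SD, n = 2 each), a log2 fold change of 1.63 ± 0.20 (SE, edgeR fit). Leaving out 1 library at a time moved that log2 fold change between 1.41 and 1.84, against 2.26 to 2.45 for Nr4a3 and 1.16 to 1.38 for Crem.

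Klf4 encodes a zinc finger transcription factor known for holding lymphocytes in quiescence and for its use in reprogramming cells to pluripotency. It held the fewest reads of the 6 genes in every library but Vehicle 3, where Nr4a3 held fewer: 218 and 174 in BrQ mice 1 and 3, against 118 and 156 in Vehicle mice 1 and 3. After scaling these were 27.5 and 22.5 CPM in BrQ and 17.1 and 23.9 CPM in Vehicle. The scaled groups overlapped, since BrQ mouse 3 lay below Vehicle mouse 3, whereas the raw reads did not. The log2 fold change was 0.29 ± 0.24 (SE, edgeR fit), and it was 0.14 without BrQ mouse 1, 0.43 without BrQ mouse 3, 0.04 without Vehicle mouse 1 and 0.53 without Vehicle mouse 3. After this scaling the difference was thus no larger than the spread between mice of a group.

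Klf10, also called TIEG1, encodes a zinc finger repressor induced early by TGF-beta. It held 628 and 442 reads in BrQ mice 1 and 3, against 551 and 660 reads in Vehicle mice 1 and 3. After scaling these were 79.3 and 57.0 CPM in BrQ and 80.1 and 101.3 CPM in Vehicle. Both BrQ values lay below both Vehicle values after this scaling, with BrQ mouse 1 and Vehicle mouse 1 nearly equal, whereas the raw reads overlapped. The log2 fold change was -0.41 ± 0.20 (SE, edgeR fit). It was -0.65 without BrQ mouse 1, -0.18 without BrQ mouse 3, -0.59 without Vehicle mouse 1 and -0.24 without Vehicle mouse 3, and -0.03 with library size alone.

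Pnrc1 encodes a proline-rich coactivator of nuclear receptors. It held the most reads of the 6 genes, 3691 and 3355 in BrQ mice 1 and 3, against 3625 and 3912 in Vehicle mice 1 and 3. After scaling these were 466.2 and 432.9 CPM in BrQ and 526.7 and 600.3 CPM in Vehicle. The scaled groups did not overlap, whereas the raw reads did. The log2 fold change was -0.33 ± 0.13 (SE, edgeR fit), and with library size alone its sign turned to 0.05. Relative to the median of all features it lay between -0.38 and -0.36 under each of the 6 scalings.

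**Figure D2:**
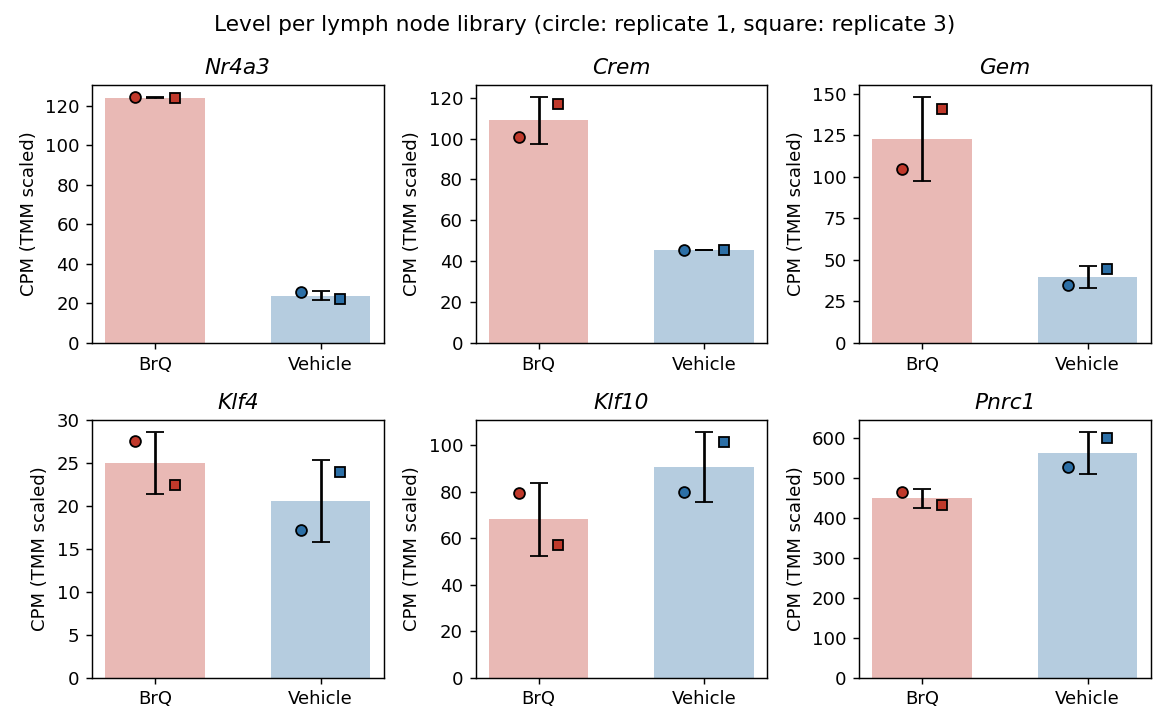
CPM of each gene (y axis, linear, TMM scaled) in BrQ and Vehicle lymph nodes (x axis); points are single mice, bars the mean and error bars the SD of 2 mice. For Nr4a3, Crem and Gem every BrQ point lies above every Vehicle point, with Nr4a3 at 124.2 and 123.9 against 25.6 and 22.3 CPM.

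By the edgeR call, 3 of the 6 genes passed as higher in BrQ (Nr4a3, Crem and Gem), beside 23.6% of all features, and 0 passed as lower, beside 22.2%. The median log2 fold change of the 6 was 0.77, against 0.05 over all features tested. By overlap of the scaled CPM, 3 lay wholly above Vehicle and 2 wholly below, beside 39.9% and 36.2% of all features. The genes were chosen on this contrast, so nothing is read from these counts. Without Vehicle replicate 1, which leaves 1 Vehicle mouse, 5 of the 6 passed, with Klf10 and Pnrc1 added as lower.

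The scaling moved all 6 genes together. Over 6 scalings the log2 fold change ran from 2.33 to 2.74 for Nr4a3, from 1.22 to 1.64 for Crem and from 1.58 to 2.01 for Gem. Relative to the median of all features the same values kept within 2.32 to 2.33, 1.21 to 1.22 and 1.58 to 1.59. The Klf4 value ran from 0.24 to 0.67 and the Klf10 value from -0.45 to -0.03. A scaling adds nearly the same amount to every gene, so it leaves the order of the 6 genes and their place against the median as they are. On that footing Klf10 and Pnrc1 lay below the median of all features.

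**Figure D3:**
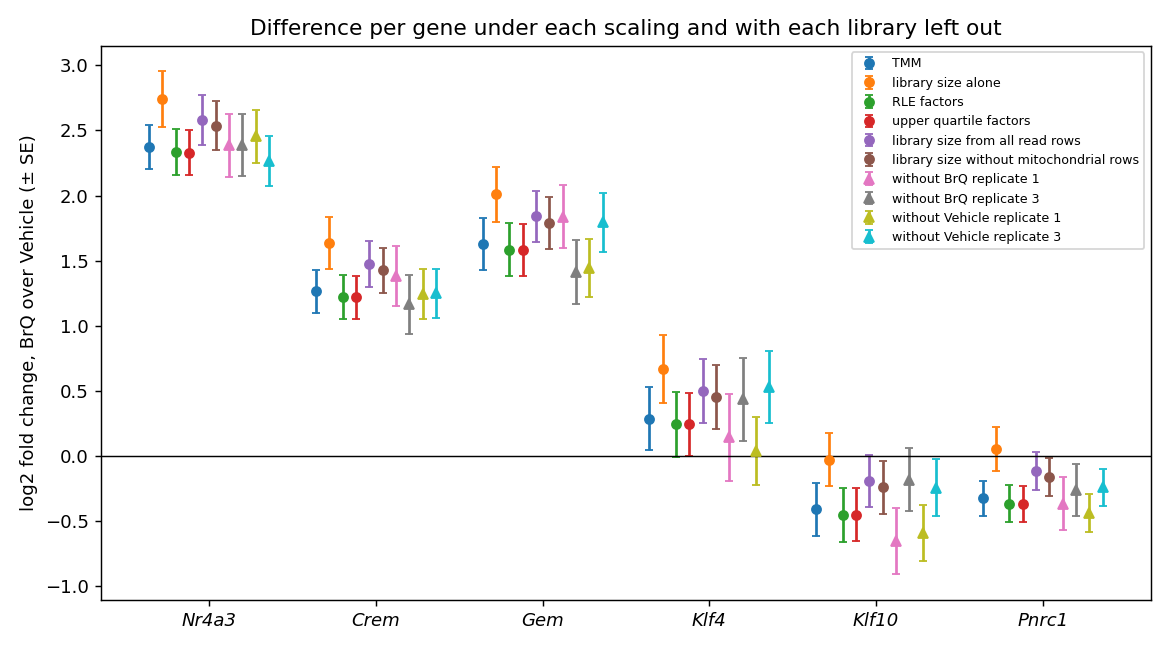
Log2 fold change of BrQ over Vehicle with its SE from edgeR (y axis) for each gene (x axis), under 6 scalings (circles) and with 1 library left out (triangles). Nr4a3, Gem and Crem stay above 1 throughout, Klf4 lies between 0.04 and 0.67, and Klf10 and Pnrc1 lie below 0 except Pnrc1 with library size alone, at 0.05.

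Ratios of 2 genes within 1 library are free of scaling, and were taken per kilobase of exon against Pnrc1, the most abundant of the 6. Nr4a3 stood at 9.32% and 10.01% of the Pnrc1 level in BrQ mice 1 and 3, against 1.70% and 1.30% in Vehicle mice 1 and 3. Gem stood at 22.4% and 32.3% of it in BrQ, against 6.62% and 7.36% in Vehicle, and Crem at 7.68% and 9.60% against 3.06% and 2.68%. For these 3 genes both BrQ libraries lay above both Vehicle libraries without any scaling between libraries. The ratio of Klf10 to Pnrc1 overlapped, at 8.53% and 6.60% in BrQ and 7.62% and 8.46% in Vehicle. That of Klf4 did not overlap, at 4.06% and 3.56% in BrQ and 2.24% and 2.74% in Vehicle, unlike its CPM. Pnrc1 itself had a mean CPM in BrQ 0.798 times that in Vehicle, so each ratio also carries that difference. The Klf4 ratio was 1.54 times as high in BrQ as in Vehicle, against 1.22 times for its mean CPM.

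Per kilobase of exon, the order of the genes differed between the groups. In BrQ, Pnrc1 stood at 214.6 ± 11.2 CPM per kb, followed by Gem at 58.3 ± 11.9, Nr4a3 at 20.7 ± 0.0347, Crem at 18.5 ± 1.93, Klf10 at 16.3 ± 3.77 and Klf4 at 8.20 ± 1.18 (SD, n = 2). In Vehicle, Pnrc1 stood at 269.0 ± 24.9 CPM per kb, followed by Klf10 at 21.7 ± 3.59, Gem at 18.9 ± 3.14, Crem at 7.68 ± 0.00729, Klf4 at 6.74 ± 1.58 and Nr4a3 at 3.99 ± 0.392 (SD, n = 2). By group mean, Nr4a3 was thus the third of the 6 in BrQ, close to Crem, and the lowest in Vehicle. Crem and Klf10 could not be ordered in BrQ, because their libraries overlapped. In Vehicle the libraries of Crem and Klf4 overlapped too. Those of Klf10 and Gem overlapped between mice. Within a library Gem stood at 0.869 and 0.870 of the Klf10 level in Vehicle mice 1 and 3. The counting errors in these mice were 6.44% and 5.88% for Gem and 4.26% and 3.89% for Klf10. The order of Klf10 and Gem is thus uncertain in each library taken alone. The lengths are those of all exons merged in GENCODE M21. A gene with many forms such as Crem is thus spread over more bases than any 1 of its transcripts. Which annotation was used for counting is not given, so the bases counted under each gene may differ from these lengths. The same limit holds for the ratios per kilobase.

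**Figure D4:**
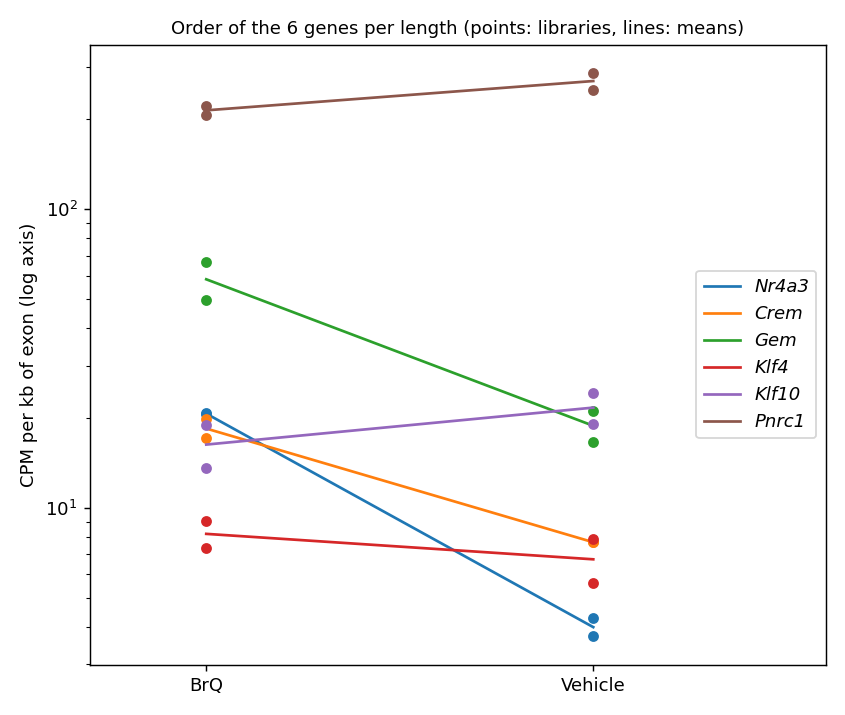
CPM per kilobase of exon (y axis, log scale) of each gene in BrQ and Vehicle (x axis); points are single mice and lines join the group means. Nr4a3 is lowest in Vehicle at 3.99 and is the third in BrQ at 20.7, while Pnrc1 is highest in both groups.

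Between Nr4a3 and Crem the ratio within libraries differed between the groups. Per kilobase it was 1.21 and 1.04 in BrQ mice 1 and 3, against 0.555 and 0.484 in Vehicle mice 1 and 3. On the merged exon lengths, Crem was thus the higher in both Vehicle libraries and Nr4a3 in BrQ mouse 1. Other lengths could change this order within a library. In BrQ mouse 3 the order is uncertain on these lengths too, since the counting errors were 3.23% for Nr4a3 and 3.32% for Crem. Crem over Gem lay at 0.343 and 0.297 in BrQ and 0.462 and 0.364 in Vehicle, so both BrQ ratios lay below both Vehicle ratios. The ratios of BrQ mouse 1 and Vehicle mouse 3 were within counting error of each other. That error was 3.54% for Crem and 3.47% for Gem in BrQ mouse 1, and 5.82% and 5.88% in Vehicle mouse 3. By the root mean square difference of centred log2 CPM over the 4 libraries, the pair most alike was Klf10 and Pnrc1, at 0.149, followed by Crem and Gem at 0.230. The next was Klf4 and Pnrc1 at 0.333, and the least alike was Nr4a3 and Klf10 at 1.42. These are descriptions over 4 libraries that also share the 2 groups.

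On GRCm38 with GENCODE M21, Gem (ENSMUSG00000028214) lies on chromosome 4 from 11704457 to 11714752, plus strand, and Pnrc1 (ENSMUSG00000040128) from 33245423 to 33290163, minus strand. Nr4a3 (ENSMUSG00000028341) lies on the same chromosome from 48045153 to 48086447, plus strand, and Klf4 (ENSMUSG00000003032) from 55527143 to 55532466, minus strand. Klf10 (ENSMUSG00000037465) lies on chromosome 15 from 38291463 to 38300706, minus strand. Crem (ENSMUSG00000063889) lies on chromosome 18 from 3266048 to 3337748, minus strand. All 6 are protein-coding, and no gene other than Crem shares exonic bases with another annotated gene.

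Most gene names in these tables appeared displaced from their reads, so the 5 nearest protein-coding genes on each side of each gene were counted. Of 56 such neighbours 32 averaged 100 reads or more, 57.1%, against 18.0% of 21871 protein-coding genes, though the genes were chosen to lie in such stretches. Around Nr4a3 and around Gem 8 of 10 neighbours did so, around Klf4 5 of 10, and around Pnrc1 and Klf10 4 of 10. Nearest to Nr4a3, Sec61b averaged 3322 reads and Stx17 651.2. Crem, close to the chromosome end, had 6 neighbours, 3 of them with 100 reads or more, among them Cul2 at 898.0. Klf10 lies near the edge of such a stretch: the next genes Azin1 and Atp6v1c1 averaged 2134 and 1158 reads, and the 3 after them were at 0. Raw reads under some neighbouring names also differed between the groups. Beside Gem, Tmem67 held 321 and 501 in BrQ mice 1 and 3, against 75 and 89 in Vehicle mice 1 and 3. Cdh17 held 232 and 233 against 53 and 65, while Rbm12b1 was lower, at 480 and 444 against 669 and 885. Beside Crem, Map3k8 held 1615 and 1932 against 1098 and 1159, while Mtpap was lower, at 704 and 650 against 732 and 812. Whether the differences of Gem and Crem were particular to them was not tested. Reads under a member's name were not shown to be its own for each gene.

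**Figure D5:**
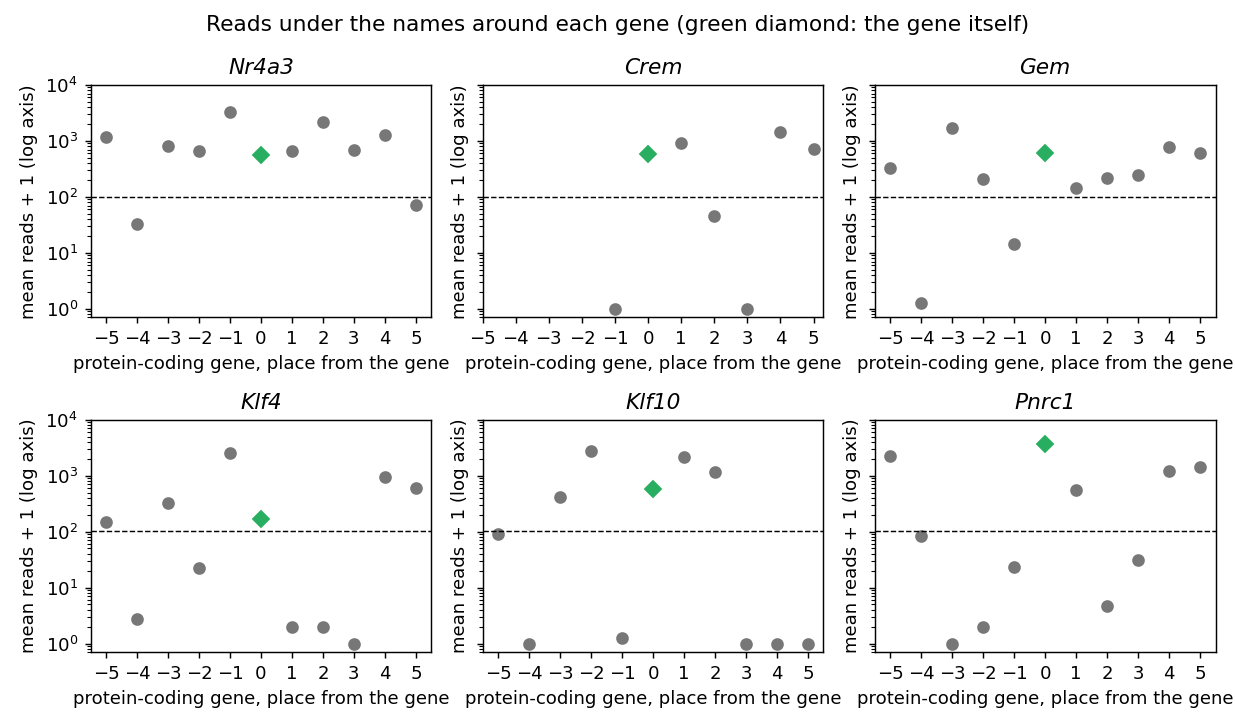
Mean reads plus 1 over the 4 libraries (y axis, log scale) for the 5 nearest protein-coding genes on each side of each gene (x axis, place in the order); the diamond is the gene itself and the dashed line marks 100 reads. Read-bearing names surround Nr4a3 and Gem on both sides, while the last 3 places after Klf10 are at 0.

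Of 32 other immediate-early and cAMP-pathway genes, among them Fos, Jun and the Egr genes, 16 held 0 reads in all 4 libraries and 7 could be tested. Of these 7, the rows named Fosb, Dusp1 and Creb1 passed as higher in BrQ by edgeR, beside 23.6% of all features. The row named Fosl1 passed as lower, beside 22.2%. The median log2 fold change over the 7 was -0.02. Reads around these names were not examined, and since most names appeared displaced, their rows are not read as levels of those genes. Whether the wider immediate-early programme differed was not analysed here.

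Rows named for markers of lymph node cells also differed between the groups, but these names were not shown to sit on their own reads either. The rows named for the B cell markers Pax5 and Cd72 summed to 2075 and 2126 CPM in BrQ mice 1 and 3, against 3254 and 3391 CPM in Vehicle mice 1 and 3. Most of that gap lay in Cd72, with means of 1034 CPM in BrQ and 2076 in Vehicle. The Pax5 means were 1067 and 1246 CPM, and Pax5 did not pass. Those named for the T cell markers Il7r, Sit1 and Tox summed to 679.2 and 754.8 CPM in BrQ, against 1005 and 1070 CPM in Vehicle. Within this sum Il7r and Sit1 were lower in BrQ and Tox was higher. Those named for the stroma markers Ccl19, Ccl21a and Col1a2 summed to 17.1 and 12.5 CPM in BrQ, against 18.6 and 25.5 CPM in Vehicle. Ccl21a was at 0 in each library and most of the sum came from Col1a2, which was lower in BrQ. Ccl19, too low to be tested, went the other way, at 3.41 and 1.03 CPM in BrQ against 0.726 and 0 in Vehicle. Of the 8 rows 6 were tested, and by edgeR 1 was higher (Tox) and 4 were lower in BrQ. Fewer cells of a type and less RNA per cell cannot be told apart in bulk tissue, and the part of these rows in the levels of the 6 genes was not tested.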

How the data were processed

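Paired-end reads came from lymph node RNA of 4 mice, per the labels' protocols. The submitters' processing notes name the mm10 genome and the tools HTSeq 0.11.2, HISAT2 2.1.0 and Trim Galore 0.6.2; which annotation release and strand setting were used is not given in the sources used here. For each mouse the authors deposited 1 table of raw counts by gene; the 5 closing rows name no gene and were left out of tests and, except in 1 alternative scaling, of library sizes. Chi-square per degree of freedom was 13.9 between the BrQ libraries and 31.1 between the Vehicle libraries, so none was a copy.

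From the counts, edgeR 4.0.16 in R 4.3.3 was fitted over all features and all 4 libraries (quasi-likelihood, legacy off, filterByExpr, TMM, design with group alone), p-values were adjusted by Benjamini-Hochberg and the threshold was 0.05; the fit was tested on simulated data. CPM values are TMM scaled. The 6 genes, the gene lists, the markers and the alternatives were chosen with earlier results of these data known. All 6 genes are named, and other genes only as nearest neighbours, listed pathway genes or markers. Positions are those of GENCODE M21 (GRCm38), with 52073 of 56748 IDs matched, and promoters from RefSeq on GRCm38.p6. Protein sequences were not used here. Alternatives were other scalings and low count filters, the legacy fit, DESeq2 1.42.0, limma 3.58.1 with voom, replicate blocks and each library left out. Each SD rests on 2 mice, p-values measure only the spread between these mice, and a two-sided exact permutation test could not go below p = 0.33.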

Additional observations from a re-analysis of the deposited data

Results flagged for a closer look

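Reads in no gene interval, used above only as 1 of the scalings, took a larger share of all read rows in both BrQ libraries than in both Vehicle libraries, with a mean of 88.7% (SD 0.18) in BrQ and 87.3% (SD 0.68) in Vehicle, over 2 mice each. The part of this difference in the levels of the 6 genes was not tested.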

How the results depend on the processing

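Nr4a3, Crem and Gem passed as higher in BrQ under each of the 16 alternatives; they were chosen on this contrast in these 4 libraries, so this supports nothing. The number of the 6 genes that passed was 3 with all libraries, and between 3 and 5 with 1 library left out, the 5 arising without Vehicle replicate 1. It was 4 with library size alone (Klf4 added as higher) and 4 with upper quartile factors (Pnrc1 added as lower). The sign of Pnrc1, which did not pass, turned from -0.33 to 0.05 with library size alone. Over all features, 4676 passed with all libraries and 2481 with no low count filter, and leaving out 1 library gave between 2031 and 4376; the cause was not tested. The share of higher among the features that passed moved with the scaling, from 2409 higher and 2267 lower to 3607 and 1072 with library size alone, 3060 and 1587 with all read rows, and 2966 and 1736 without mitochondrial rows. The mice of the 2 groups share only a replicate number: the deviations of same-numbered libraries correlated at -0.12 over 10223 features. With the replicate block 4190 features and 3 of the 6 genes passed. With the crossed replicate block, chosen after seeing the data, 5284 features and 5 of the 6 genes passed. In the 250 bases before the start alone, 45 of 32841 promoters held 4 or more CRE half-sites, 0.137% against 0.231% in the full window, the window being shorter. Klf4, with 118 to 218 reads per library, had the largest counting error of the 6 genes, up to 9.21% of its count.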
